A study of Mus musculus with 6 samples.

Results

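The genes described here are 45 cell cycle genes, 20 of S phase (DNA replication and entry into it) and 25 of G2 and mitosis, in mouse bone marrow-derived macrophages with and without polystyrene particles. Members were taken by gene symbol, and all 45 were found among the 40213 genes of the files and among the 12893 genes that passed the filter on low counts. The cells came from bone marrow of C57BL/6 mice, grown for 4 days with 25 ng/ml of the macrophage growth factor M-CSF in serum-containing medium, which turns precursors into macrophages. In 3 samples the cells then received polystyrene micro- and nanoplastics (MNP, 50 µg in a volume that the labels do not give) for 24 h, and 3 control samples received none. The labels give neither the particle size nor the age or sex of the mice. The labels do not say whether the 3 samples of a group came from separate cultures or animals, so all p-values below measure the spread between these samples only, which may be technical.

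Cells copy their DNA in S phase and separate the copies in mitosis, and each step has its own set of transcripts that rise and fall with the cycle. E2F factors switch on the replication genes as a cell leaves G1, and the MuvB complex with MYBL2 and FOXM1 switches on the mitotic genes later. Macrophages grown from bone marrow still divide for some days, driven by colony-stimulating factor, so a culture of them holds cells at several points of the cycle. RNA from a whole culture gives 1 sum over all of its cells, and here fewer cells in a phase and less RNA per cell in that phase cannot be told apart.

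Library totals ran from 20262859 to 23042146 counts. Values are given as CPM, the usual unit of counts relative to a common library size, scaled with edgeR's TMM factors, so that 1 count was worth 0.0424 to 0.0483 CPM. The lowest count of any member in any library was 156 reads. Control 1 had a count for 24062 genes, against 20222 and 20935 in the other controls and 18240 to 18672 in the MNP samples. The macrophage label was checked against its markers. Lyz2, the lysozyme of myeloid cells, was at a mean of 14779 CPM in controls and 13152 CPM in MNP samples, and Csf1r, the M-CSF receptor, at 1400 and 1337 CPM. Both were chosen from 9 macrophage markers after their values were seen. Lyz2 was itself lower in MNP samples (1.12-fold, edgeR adjusted p = 0.0491), and Csf1r did not differ by this test (adjusted p = 0.485).

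After MNP treatment the cell cycle genes stayed close to their control levels, with a small split between phases. Of 45 members, 2 rose, the sliding clamp gene Pcna (1.27-fold) and the helicase gene Mcm6 (1.17-fold), both of S phase. Another 4 fell, the mitotic cyclin gene Ccnb2 (1.38-fold lower) and the centromere genes Cenpa (1.30-fold lower), Cenpf (1.29-fold lower) and Cenpe (1.20-fold lower). The other 39 did not pass edgeR's quasi-likelihood test at an adjusted p of 0.05. A share of 13.3% of members was called, against 17.5% of all genes tested (2250 of 12893). Calls among all genes were 9.11% higher and 8.35% lower. The share of members called was thus not above that of all genes.

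The 2 phases leaned to opposite sides of 0. The median log2 fold change was 0.070 for the S phase members, with 15 of 20 above 0, and -0.092 for the mitotic members, with 20 of 25 below 0. The median over all 12893 tested genes was -0.011, with 6208 above 0 and 6685 below. The 3 control and 3 MNP values did not overlap for 8 members. Of these, 3 were higher in MNP samples (Mcm6, Pcna and Mybl2) and 5 lower (Gins2, Ccnb2, Cenpa, Cenpe and Cenpf). Among all tested genes, 17.2% were higher and 17.4% lower without overlap. An unadjusted p under 0.05 was found for 8 members, 3 of S phase and 5 mitotic, against 3857 of all 12893 genes.

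**Figure D1:**
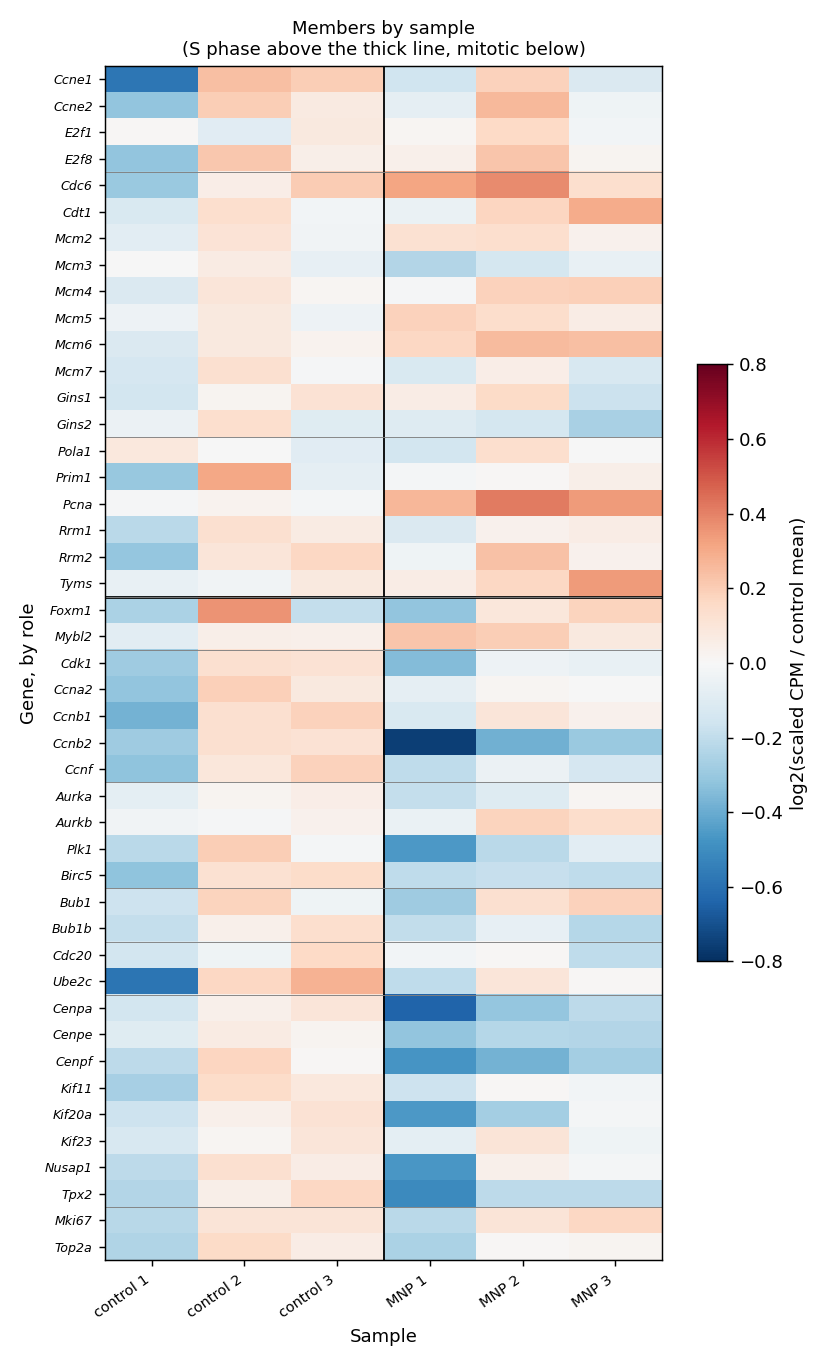
Heat map of the 45 members (rows, S phase above mitotic) in the 6 samples (columns), as log2 of scaled CPM over the mean of the 3 controls. Control 1 has the lowest value for 14 of 20 S phase members, and MNP 1 for 14 of 25 mitotic members.

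Among the regulators of entry into S phase, none of 4 was called. Ccne1, which encodes cyclin E1, the partner of CDK2 at the start of S phase, was at 8.05, 14.2 and 13.8 CPM in controls 1 to 3 and 10.7, 13.6 and 11.1 CPM in MNP samples 1 to 3 (1.02-fold lower, log2 fold change -0.026 ± 0.19 SE, edgeR adjusted p = 0.945). Control 1 was the lowest of the 6, while controls 2 and 3 lay above every MNP value. The related cyclin gene Ccne2 had the same low first control. It was at 29.0, 41.5 and 38.1 CPM in controls and 34.4, 43.3 and 35.3 CPM in MNP samples (1.04-fold higher, log2 0.057 ± 0.12, adjusted p = 0.802). E2f1, the activating E2F factor, was steadier, with 21.4, 19.999 and 22.4 CPM in controls and 21.5, 23.7 and 20.9 CPM in MNP samples (1.04-fold higher, log2 0.052 ± 0.093, adjusted p = 0.752). E2f8, a repressor that E2F1 itself turns on, was at 29.0 ± 5.27 CPM in controls and 31.1 ± 2.42 CPM in MNP samples (mean ± SD, n = 3, as for all means below).

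The 10 members that license origins and unwind DNA had a median log2 fold change of 0.11, and 1 of them rose. MCM2 to MCM7 form the ring that opens the helix, CDC6 and CDT1 load it onto origins, and GINS activates it. Mcm6 was at 127, 146 and 140 CPM in controls and 155, 165 and 163 CPM in MNP samples (log2 0.22 ± 0.062, adjusted p = 0.0251). All 3 MNP values were above all 3 controls. Mcm2 was at 48.1, 55.0 and 50.0 CPM in controls and 55.4, 56.0 and 52.2 CPM in MNP samples, with overlapping groups (1.07-fold higher, log2 0.10 ± 0.074, adjusted p = 0.421). The helicase genes of the same ring did not share 1 direction. Mcm4 (82.0 ± 6.07 to 89.4 ± 6.78 CPM) and Mcm5 (53.8 ± 2.62 to 58.8 ± 2.52 CPM) had higher means in MNP samples. Mcm3 (120 ± 5.602 to 109 ± 6.65 CPM) and Mcm7 (50.9 ± 4.59 to 48.7 ± 3.52 CPM) had lower ones, and none of these passed the test. Of the loaders, Cdc6 went from 9.30 ± 1.59 to 11.3 ± 0.963 CPM, a log2 fold change of 0.28 ± 0.14 that did not pass (adjusted p = 0.214). Cdt1 was at 10.7 ± 0.965 and 11.8 ± 1.41 CPM. Gins1 stayed at 8.92 ± 0.816 and 9.04 ± 1.01 CPM, and Gins2 was at 16.4 ± 1.39 and 14.6 ± 0.810 CPM without passing.

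Of the 6 members for DNA synthesis and its building blocks, 1 rose, and it showed the firmest change of the whole set. Pcna encodes the clamp that holds DNA polymerases on their template and also serves DNA repair. It was at 347, 356 and 346 CPM in controls and 420, 466 and 442 CPM in MNP samples (log2 0.34 ± 0.056, adjusted p = 0.000849). The controls lay close together and well below every MNP value. Tyms, thymidylate synthase, was at 13.01 ± 0.647 CPM in controls and 14.9 ± 1.5 CPM in MNP samples and did not pass. Means of the other 4 stayed close between the groups. For the ribonucleotide reductase genes these were 141 ± 17.2 and 141 ± 8.93 CPM (Rrm1) and 66.1 ± 11.2 and 70.1 ± 6.84 CPM (Rrm2). Pola1, the catalytic subunit of polymerase alpha, was at 49.9 ± 3.01 and 49.9 ± 4.80 CPM, and the primase gene Prim1 at 9.24 ± 2.04 and 9.33 ± 0.214 CPM.

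**Figure D2:**
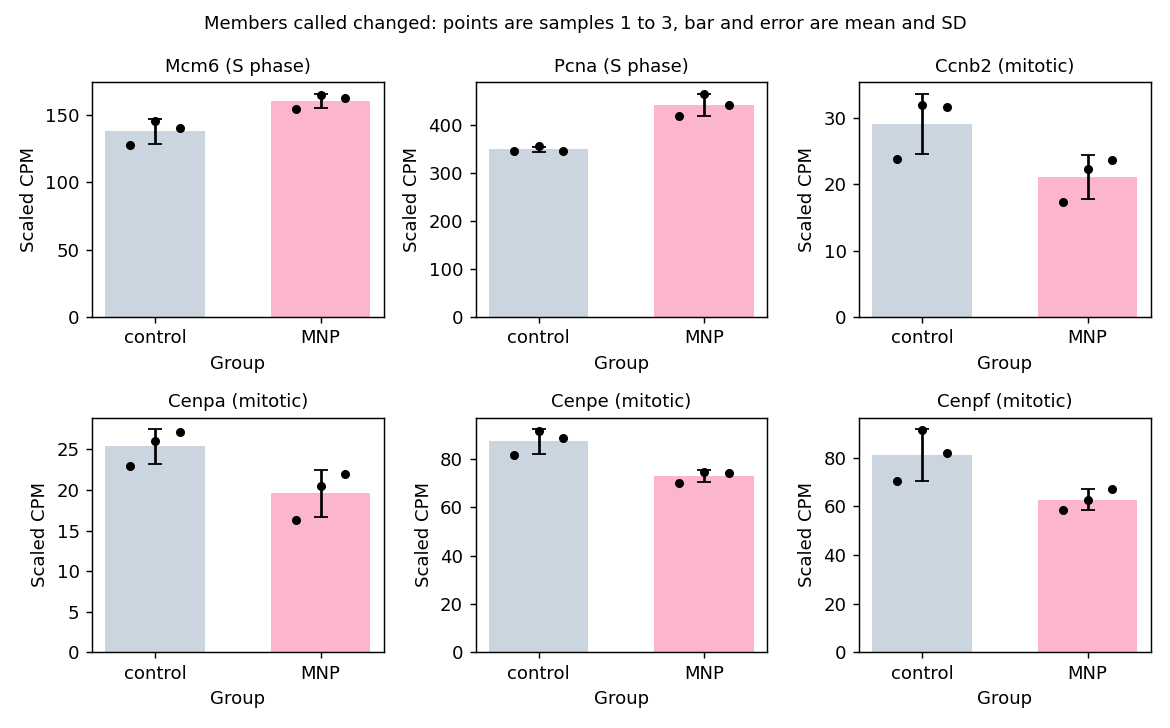
Scaled CPM of the 6 members that passed the test, 1 panel each, with a point per sample for 3 controls and 3 MNP samples and the mean with SD. In every panel the groups do not overlap, with Pcna and Mcm6 higher and Ccnb2, Cenpa, Cenpe and Cenpf lower in MNP samples.

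Neither of the transcription factors of the mitotic program was called. Foxm1 was at 10.6, 16.3 and 11.1 CPM in controls and 10.2, 13.5 and 14.3 CPM in MNP samples (1.00-fold, log2 -0.0025 ± 0.17, adjusted p = 0.994), so both groups spanned nearly the same range. Mybl2 was at 9.25, 10.1 and 10.1 CPM in controls and 11.5, 11.3 and 10.4 CPM in MNP samples (1.12-fold higher, log2 0.17 ± 0.12, adjusted p = 0.373). Its groups did not overlap, on the side opposite to most mitotic genes, and the difference did not pass the test.

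Among the cyclins and kinase that bring cells into mitosis, 1 of 5 fell and the median log2 fold change was -0.13. Ccnb2, which encodes cyclin B2, was at 23.9, 32.0 and 31.7 CPM in controls and 17.4, 22.4 and 23.8 CPM in MNP samples (log2 -0.46 ± 0.13, adjusted p = 0.0281). The highest MNP value lay just under the lowest control. Its paralog Ccnb1, for cyclin B1, the main activator of CDK1, overlapped fully. It was at 31.6, 44.8 and 46.7 CPM in controls and 37.6, 43.8 and 42.1 CPM in MNP samples (1.00-fold, log2 0.0041 ± 0.12, adjusted p = 0.986). Cdk1, the mitotic kinase, was at 38.5, 51.3 and 50.8 CPM in controls and 36.9, 45.7 and 44.9 CPM in MNP samples (1.10-fold lower, log2 -0.14 ± 0.11, adjusted p = 0.438). Within each group the first sample was lowest for Cdk1. Ccna2, for cyclin A2, was at 67.3 ± 11.9 and 66.4 ± 2.15 CPM, and Ccnf, for cyclin F, at 19.4 ± 3.42 and 17.7 ± 0.950 CPM.

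The kinases of the mitotic spindle and their partner survivin had a median log2 fold change of -0.15, and none of 4 was called. Plk1 went from 16.7 ± 2.38 to 14.1 ± 1.81 CPM and Birc5, which encodes survivin, from 27.999 ± 4.83 to 24.4 ± 0.201 CPM, with neither passing. Aurka was at 19.99 ± 0.910 and 18.8 ± 1.34 CPM, and Aurkb at 19.5 ± 0.411 and 20.8 ± 1.71 CPM. The spindle checkpoint kinase genes Bub1 (30.5 ± 3.73 and 31.0 ± 5.19 CPM) and Bub1b (36.5 ± 4.14 and 32.7 ± 1.96 CPM) were not called either. The same held for the activators of anaphase, Cdc20 (9.29 ± 1.02 and 8.85 ± 0.676 CPM) and Ube2c (20.4 ± 5.99 and 20.1 ± 2.12 CPM).

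The kinetochore, spindle and motor genes held 3 of the 4 members that fell, and all 8 had a log2 fold change below 0, with a median of -0.25. Kif23 was nearest to 0, at -0.0018 ± 0.088, and was above 0 in some other fits, such as with RLE factors or DESeq2. Of these 8 genes 37.5% were called, against 17.5% of all 12893 tested genes, of which 6685 were below 0. The difference was not tested. Cenpa encodes the histone H3 variant that marks the centromere. It was at 22.96, 26.0 and 27.1 CPM in controls and 16.3, 20.4 and 22.0 CPM in MNP samples (log2 -0.37 ± 0.12, adjusted p = 0.0406). Cenpe, a motor that moves chromosomes to the middle of the spindle, was at 81.7, 91.6 and 88.7 CPM in controls and 70.0, 74.5 and 74.2 CPM in MNP samples (log2 -0.26 ± 0.065, adjusted p = 0.0136). Its lowest control stood clear of its highest MNP sample. Cenpf, a large coiled-coil protein of the kinetochore, was at 70.4, 91.6 and 81.8 CPM in controls and 58.6, 62.6 and 67.3 CPM in MNP samples (log2 -0.37 ± 0.091, adjusted p = 0.0121). Every MNP value was below every control for all 3 centromere genes.

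The 5 spindle and motor genes beside them were not called. Tpx2, which activates Aurora A at the spindle, came nearest, with 61.2 ± 8.46 CPM in controls and 49.5 ± 5.74 CPM in MNP samples (log2 -0.31 ± 0.11, adjusted p = 0.0661). Kif20a, a motor of the central spindle, was at 38.5 ± 3.78 and 32.6 ± 5.08 CPM. Nusap1, which bundles spindle microtubules, was at 41.4 ± 5.03 and 37.8 ± 6.85 CPM. Means were closer for the motor genes Kif11 (76.3 ± 11.3 and 73.4 ± 4.69 CPM) and Kif23 (31.3 ± 2.45 and 31.3 ± 2.11 CPM).

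Both chromosome-bound proliferation markers overlapped between the groups. Mki67, which encodes the proliferation antigen Ki-67, was at 485, 607 and 607 CPM in controls and 489, 609 and 635 CPM in MNP samples (1.02-fold higher, log2 0.027 ± 0.10, adjusted p = 0.887). The first sample of each group was low and the other 4 were alike. Top2a, the topoisomerase that untangles sister chromosomes, was at 229, 300 and 281 CPM in controls and 227, 272 and 274 CPM in MNP samples (1.05-fold lower, log2 -0.069 ± 0.10, adjusted p = 0.683).

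**Figure D3:**
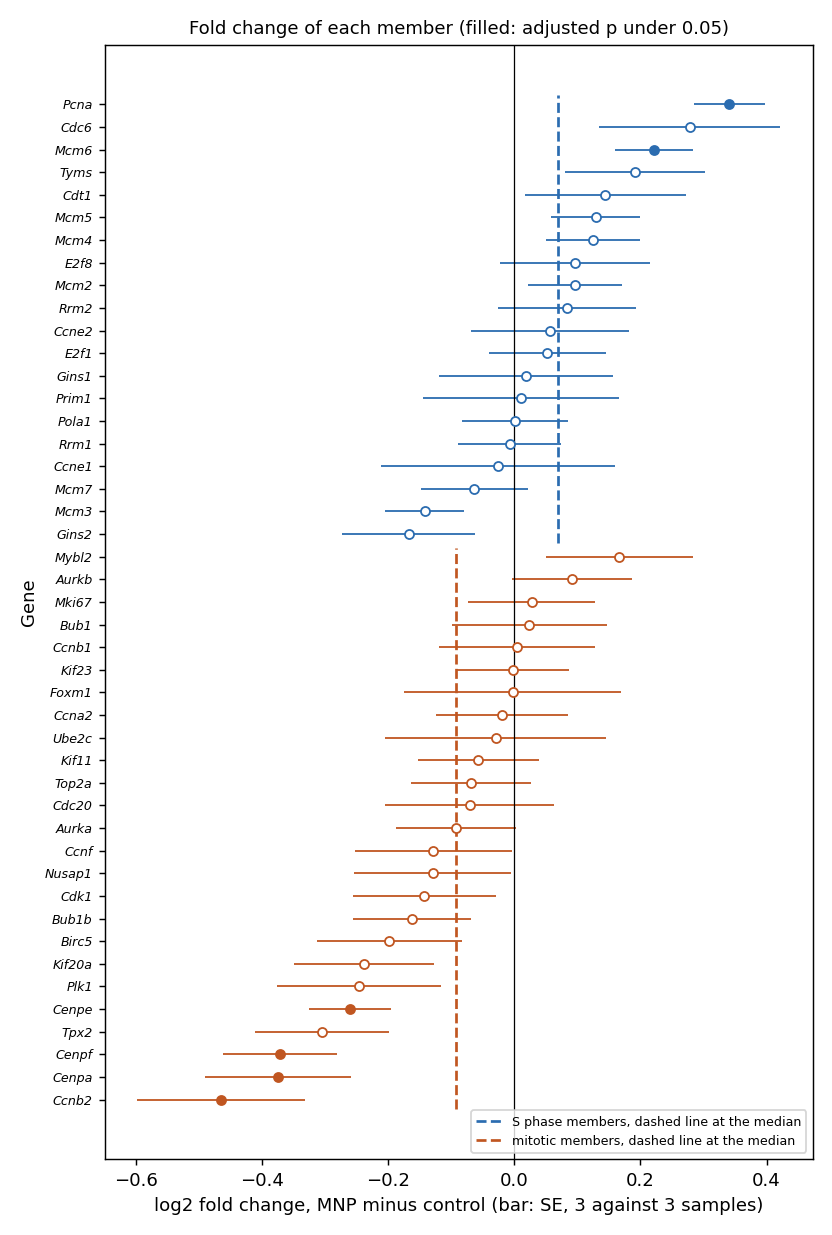
Log2 fold change (MNP minus control) of each of the 45 members with its SE, grouped by phase and ordered by fold change, with members that passed the test marked. All 8 kinetochore, spindle and motor genes lie below 0, with Kif23 nearest to it at -0.0018, and Pcna has the highest value of the set at 0.34.

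Promoter sequence is shown for the 6 members that changed, because replication and mitotic genes are known to differ in the short elements at their starts. Each stretch holds 250 bases before and 50 after the RefSeq start of the gene, from the RefSeq table on build GRCm38.p6, which is older than the GRCm39 named in the submitters' processing notes. Capitals mark matches on either strand to letters of 3 elements. These are TTTCGCGC, TTTGGCGC or GGCGGGAA for E2F, TTTGAA or TTCGAA for the CHR element of mitotic genes, and CCAAT, which reads ATTGG on the other strand.
Pcna (chr2:132253131-132253430, minus strand): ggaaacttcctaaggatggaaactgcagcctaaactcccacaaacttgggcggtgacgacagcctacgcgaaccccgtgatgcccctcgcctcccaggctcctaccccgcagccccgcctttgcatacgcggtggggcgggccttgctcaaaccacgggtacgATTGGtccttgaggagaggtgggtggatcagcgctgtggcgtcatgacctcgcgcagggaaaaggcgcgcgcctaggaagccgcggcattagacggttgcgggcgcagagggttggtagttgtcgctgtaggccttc
Mcm6 (chr1:128359656-128359955, minus strand): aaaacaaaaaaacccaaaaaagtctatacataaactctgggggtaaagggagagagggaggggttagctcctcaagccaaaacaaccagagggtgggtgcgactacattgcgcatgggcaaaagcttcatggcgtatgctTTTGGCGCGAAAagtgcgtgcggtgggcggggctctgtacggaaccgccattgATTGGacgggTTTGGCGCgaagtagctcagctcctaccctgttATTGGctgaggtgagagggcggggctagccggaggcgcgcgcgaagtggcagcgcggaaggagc
Ccnb2 (chr9:70421505-70421804, minus strand): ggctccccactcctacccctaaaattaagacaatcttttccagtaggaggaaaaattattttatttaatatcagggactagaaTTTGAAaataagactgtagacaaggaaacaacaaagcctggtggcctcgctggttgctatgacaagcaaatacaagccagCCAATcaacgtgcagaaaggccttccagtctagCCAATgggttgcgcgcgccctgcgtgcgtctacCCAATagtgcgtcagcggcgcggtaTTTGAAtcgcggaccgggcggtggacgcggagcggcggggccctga
Cenpa (chr5:30666636-30666935, plus strand): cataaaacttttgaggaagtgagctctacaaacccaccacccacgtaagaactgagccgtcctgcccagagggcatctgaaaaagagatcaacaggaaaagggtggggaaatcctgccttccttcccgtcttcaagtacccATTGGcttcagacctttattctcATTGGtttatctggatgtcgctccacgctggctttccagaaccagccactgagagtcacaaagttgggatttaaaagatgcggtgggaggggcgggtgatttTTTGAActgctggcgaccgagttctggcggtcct
Cenpe (chr3:135212313-135212612, plus strand): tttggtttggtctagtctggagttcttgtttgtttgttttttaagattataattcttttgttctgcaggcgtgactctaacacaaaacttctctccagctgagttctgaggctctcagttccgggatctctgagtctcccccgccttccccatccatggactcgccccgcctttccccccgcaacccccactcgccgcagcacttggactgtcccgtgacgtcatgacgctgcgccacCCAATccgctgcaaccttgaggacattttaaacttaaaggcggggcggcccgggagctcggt
Cenpf (chr1:189688037-189688336, minus strand): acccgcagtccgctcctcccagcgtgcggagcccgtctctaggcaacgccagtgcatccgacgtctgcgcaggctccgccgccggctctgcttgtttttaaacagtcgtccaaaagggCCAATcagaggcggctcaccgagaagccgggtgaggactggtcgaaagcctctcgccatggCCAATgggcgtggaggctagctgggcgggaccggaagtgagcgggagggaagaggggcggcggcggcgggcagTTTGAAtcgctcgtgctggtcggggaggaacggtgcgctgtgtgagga

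Of these 6 windows, only that of Mcm6 held E2F letters, with first bases at -110, -106 and -47, and CCAAT matches at -57 and -14, where the start is base 1 and the base before it -1. The first 2 of these matches share bases. The window of Pcna held a single CCAAT match at -87. CHR letters lay just after the start in Ccnb2 (base 5), Cenpa (base 17) and Cenpf (base 3), and Ccnb2 had another match at -167. CCAAT matches stood upstream in each of these 3, at -87, -54 and -21 in Ccnb2, at -109 and -86 in Cenpa, and at -132 and -71 in Cenpf. Cenpe held 1 CCAAT match, at -12, and no CHR letters.

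The table held 36 of the 45 members, with 17 windows of 16 S phase genes and 20 windows of 20 mitotic genes. E2F letters were found in 47.1% of S phase windows, 5.00% of mitotic windows and 2.96% of all 32851 windows. CHR letters were found in 17.6%, 75.0% and 19.2%, and CCAAT in 70.6%, 85.0% and 37.4%. Matches of E2F and CCAAT shared bases in 2 of the 37 member windows, and matches of the other pairs in 0. A match is a run of letters in this window and does not show that a factor binds there.

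The level of the S phase genes relative to the mitotic genes was compared within each library. A shift of the same log2 size in both phases cancels in it, and an unequal shift does not. The measure is the mean of log2(CPM + 0.5) over the 20 S phase members minus that over the 25 mitotic members. It was 0.02, -0.06 and -0.10 in controls 1 to 3 and 0.23, 0.15 and 0.06 in MNP samples 1 to 3. Every MNP value was above every control, narrowly between control 1 (0.0193) and MNP 3 (0.0572). The group means were -0.05 ± 0.06 and 0.15 ± 0.08, a difference of 0.19. No p is given for it, because the members were chosen with results of these data known.

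Both phases taken alone overlapped between the groups. The S phase mean was 5.06, 5.30 and 5.24 in controls and 5.21, 5.35 and 5.26 in MNP samples. The mitotic mean was 5.04, 5.36 and 5.34 in controls and 4.99, 5.20 and 5.20 in MNP samples. In both phases the first sample of each group was the lowest of its group. The S phase minus mitotic difference was highest of its group in the same samples, so it also varied with the level of these genes. Without the 6 called members the within-library difference between phases was -0.20, -0.27 and -0.32 in controls and -0.07, -0.14 and -0.23 in MNP samples. The groups then overlapped, and the difference of means was 0.12.

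**Figure D4:**
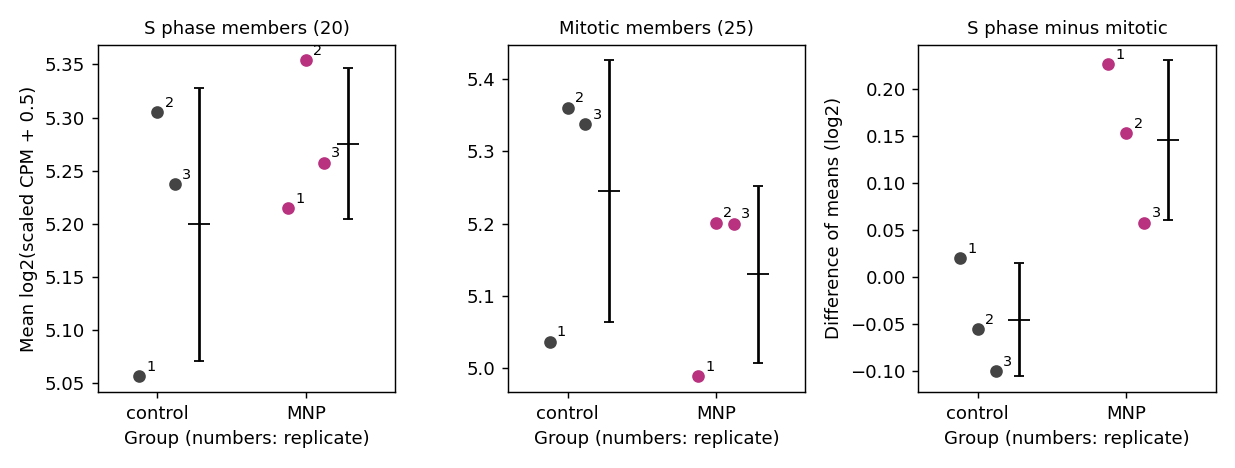
Mean log2(CPM + 0.5) of the S phase members, of the mitotic members, and the first minus the second, with a point for each of 3 controls and 3 MNP samples and the group mean with SD. The phase means overlap between groups, and the S phase minus mitotic values do not (at most 0.0193 in controls, at least 0.0572 in MNP samples).

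Control 1 and MNP 1 were the low libraries for these genes. Control 1 had the lowest value of the 6 libraries for 23 of 45 members, 14 of S phase and 9 mitotic, and the highest for 0. MNP 1 had the lowest value for 16 members, 2 of S phase and 14 mitotic, and the highest for 2. The highest value of a member was most often in control 2, for 16 members. Control 1 was also the library with a count for the most genes, and the part of this in the low values was not tested.

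Calls among the members depended on single libraries, while the medians of both phases kept their sign over the omissions. The S phase members below 0 numbered 5 of 20 with all libraries, 10 without control 1 and 8 without MNP 2. The other omissions left 2 to 5 of them below 0. Of the 25 mitotic members, 14 to 23 were below 0 over the omissions. Without control 1 the mitotic median was -0.22 and the S phase median 0.011, and Tpx2 (log2 -0.40, edgeR adjusted p = 0.00576) and Birc5 (log2 -0.33, adjusted p = 0.0170) fell as well. That made 2 members higher and 6 lower, beside 17.1% of all genes called and 7.63% called lower. Without control 2 or without MNP 1, 2 members were called higher and 0 lower, beside 12.4% and 13.8% of all genes called. Omission of control 3 left 2 higher and 2 lower (15.2% of all genes), omission of MNP 2 left 1 and 1 (11.0%), and omission of MNP 3 left 1 and 4 (11.4%). By an unadjusted edgeR p under 0.05, 5 members were lower without control 2 and 4 without MNP 1. With all libraries, 3857 of 12893 genes had such a p in either direction.

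Pcna passed in each of the 6 omissions. Mcm6 lost its call without MNP 2 (adjusted p = 0.110) or MNP 3 (adjusted p = 0.0896). Cenpe lost it without control 2 (adjusted p = 0.0678) or MNP 1 (adjusted p = 0.0602), and Cenpf without control 2, MNP 1 or MNP 2 (adjusted p 0.0542 to 0.0686). Ccnb2 lost its call without control 2, control 3, MNP 1 or MNP 2, with adjusted p from 0.0710 to 0.127. Cenpa lost it without the same 4 libraries, with adjusted p from 0.0953 to 0.175. The median of the S phase members stayed between 0.011 and 0.16 and that of the mitotic members between -0.22 and -0.039 over the 6 omissions.

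**Figure D5:**
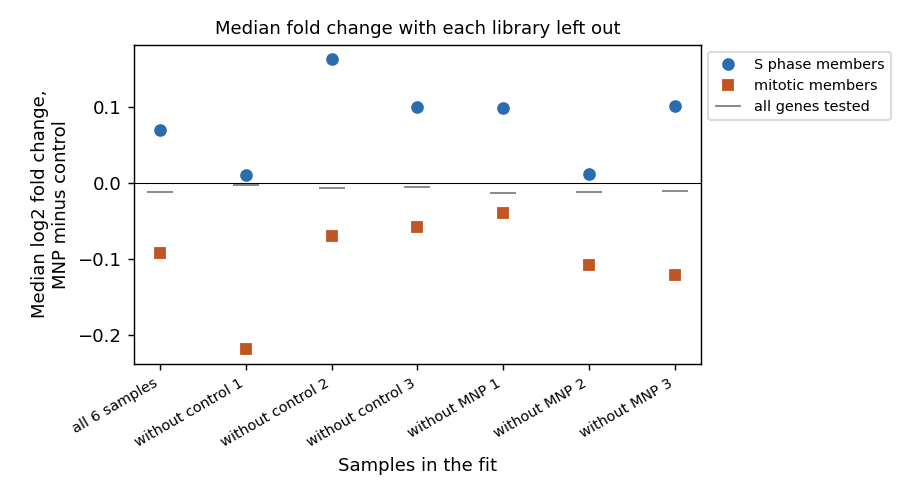
Median log2 fold change (MNP minus control) of the S phase members and of the mitotic members with all 6 libraries and with each library left out. The S phase median stays above 0 (0.011 to 0.16) and the mitotic median below 0 (-0.22 to -0.039).

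Scaling set where 0 lay. With library totals alone in place of TMM factors, the median over all genes moved to -0.099, the S phase median to -0.018 and the mitotic median to -0.18. The split of all calls then went from 1174 higher and 1076 lower to 757 and 1941. Relative to the median of all genes the S phase members stayed higher and the mitotic members lower. The call of Mcm6 was lost (log2 0.13, adjusted p = 0.148), and Tpx2, Kif20a and Mcm3 were called lower in addition.

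The summed level of the members was a small share of the RNA. They took 0.271%, 0.328% and 0.314% of counts in controls and 0.266%, 0.307% and 0.298% in MNP samples, with overlapping groups. Per kilobase of exon (GENCODE M21 models matched by symbol), Pcna was highest in controls at 230 CPM per kb, followed by Mki67 at 56.3, Top2a at 51.7, Mcm3 at 39.6 and Rrm1 at 35.4. Cdc6 (1.95), Mybl2 (2.69) and Foxm1 (2.72 CPM per kb) were lowest.

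Further cell cycle genes outside the 45 were read from 3 other lists. Of 40 further S phase genes, 1 rose and 0 fell by edgeR, and the same counts came from DESeq2. Their median log2 fold change was 0.0088, with 21 above 0 and 19 below. The share called was 2.5%, against 17.5% of all tested genes. By an unadjusted edgeR p under 0.05, 6 were higher and 2 lower, against 3857 of all 12893 tested genes in either direction. The one that rose was Tk1, the thymidine kinase of the salvage pathway, from 13.6 ± 2.61 to 18.4 ± 0.426 CPM (log2 0.43 ± 0.13, edgeR adjusted p = 0.0362). Of 56 further G2 and mitosis genes tested, 0 rose and 3 fell by edgeR and by DESeq2, with a median of -0.067 and 42 of 56 below 0. Of these 56 genes 5.36% were called, also against 17.5% of all 12893 tested genes, of which 6685 were below 0. By an unadjusted edgeR p under 0.05, 0 of the 56 were higher and 5 lower, against the same 3857 of 12893 genes. The 3 called lower were Cdc25b, the phosphatase that activates CDK1 (25.8 ± 1.51 to 19.5 ± 0.604 CPM, adjusted p = 0.00615), Hmmr, a spindle protein and hyaluronan receptor (49.8 ± 8.99 to 36.7 ± 1.71 CPM, adjusted p = 0.0161), and the securin gene Pttg1 (9.23 ± 0.469 to 6.61 ± 0.924 CPM, adjusted p = 0.0378). The further S phase genes minus the further mitotic genes gave -0.02, -0.22 and -0.20 in controls and 0.06, -0.05 and -0.07 in MNP samples. These groups overlapped, since control 1 lay above MNP 2 and MNP 3.

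Among genes of cell cycle entry and exit, 7 of 40 tested rose and 3 fell. That is 25.0% called, against 17.5% of all tested genes, and the difference was not tested. The median log2 fold change was 0.020, with 22 above and 18 below 0. Cdkn1c, which encodes the CDK inhibitor p57, was at 45.8, 26.4 and 28.3 CPM in controls and 236, 249.1 and 223 CPM in MNP samples (7.06-fold higher, log2 2.82 ± 0.15, adjusted p = 3.91e-08). Control 1 was the highest of the controls, still far below every MNP sample. Ccnd1, for cyclin D1, the growth-factor-responsive partner of CDK4 and CDK6, was at 140, 158 and 152 CPM in controls and 243, 258 and 239 CPM in MNP samples (1.64-fold higher, log2 0.72 ± 0.06, adjusted p = 2.43e-06). E2f6, a repressor of the E2F family, rose from 17.5 ± 1.54 to 30.1 ± 1.91 CPM (log2 0.79 ± 0.10). An inhibitor and an activator of the cycle thus rose in the same samples. The other 4 that rose, named after their values were seen, were Myc, E2f3, E2f2 and Cdk6. Those that fell were Mxd1, a MAX partner that opposes MYC (20.7 ± 0.742 to 12.02 ± 0.761 CPM), the antiproliferative gene Btg2 (38.4 ± 0.561 to 29.2 ± 3.04 CPM) and Max, the shared partner of MYC and MXD1 (85.1 ± 4.80 to 69.9 ± 4.57 CPM).

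Markers of other cells that could divide in a marrow culture were read beside these values. Of 9 tested markers of myeloid progenitors (11 listed), 1 rose and 2 fell. Kit, the receptor of stem cell factor, rose from 9.90 ± 1.48 to 16.8 ± 1.82 CPM. Cd34 fell from 3.89 ± 0.598 to 1.46 ± 0.370 CPM, and Mpo, the peroxidase of granulocyte precursors, from 13.5 ± 1.71 to 7.72 ± 0.953 CPM. Their summed level was 33.6 to 38.5 CPM in controls and 29.0 to 35.9 CPM in MNP samples. Monocyte markers (4 of 5 fell) summed to 118 to 126 CPM in controls and 65.5 to 72.7 CPM in MNP samples, and neutrophil markers (1 rose and 4 fell of 8 tested) to 218 to 308 and 204 to 234 CPM. Macrophage markers (4 of 9 fell) summed to 19090 to 19800 CPM in controls and 17000 to 18010 CPM in MNP samples. Those that fell were Mertk (1.40-fold lower), Fcgr1 (1.42-fold lower), Adgre1 (1.26-fold lower) and Lyz2, and 0 rose. Of the tested markers, 33.3% of progenitor, 80% of monocyte, 62.5% of neutrophil and 44.4% of macrophage markers were called. The share was 17.5% of all tested genes, and the differences were not tested.

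Other lineages were scarce. Megakaryocyte markers summed to 17.5 to 25.5 CPM in controls and 11.9 to 14 CPM in MNP samples, with 1 of 3 tested falling, and dendritic cell markers to 3.90 to 7 and 2.15 to 3.63 CPM, with 1 of 4 falling. Among all tested genes, 8.35% were called lower. Erythroid, mast cell, T and NK cell, B cell and stromal markers each summed to at most 2.26 CPM in every library. Of the erythroid and mast cell markers 0 passed the filter on low counts, so these were not tested. Of the T and NK cell, B cell and stromal markers 1 each was tested, and none was called. The defining genes Cd3e of T cells and Ncr1 of NK cells had 0 counts in all 6 libraries. The part of any other cell type in the cell cycle values was not tested.

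Counts of some members may hold reads of a neighbour, since no label or file states whether the counting used strand. A gene on the opposite strand with more than 1 count overlapped Ccna2 (Exosc9), Ccne2 (Ints8), Cdc20 (Elovl1), Gins2 (Gse1), Kif20a (Cdc23), Mcm7 (Cops6 and Ap4m1), Nusap1 (Oip5) and E2f8 (Gm2788). For Cdc20 and Gins2 the neighbour held more counts over the whole gene than the member, at 837% and 257% of it. Reads in the shared stretch were not counted apart, so the values of Cdc20 and Gins2 are uncertain by an unknown amount. In the GENCODE M21 models none of the 6 called members had such a neighbour. Pseudogenes named for members were Tyms-ps with 0 to 6 counts and Ccnb1-ps with 11 to 30 counts per library.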

How the data were processed

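The deposited files, 1 per sample, hold whole-number counts per gene symbol made by the authors. The submitters' processing notes name GATK, Salmon, STAR and fastp and the build GRCm39, without saying what each tool did or its version. Per the labels, total RNA (RNAiso Plus) went into CORALL RNA-seq V2 libraries. Neither the labels nor these notes state the annotation, the strandedness, whether molecular identifiers were used or whether estimates were rounded to counts.

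Groups came from sample titles. Counts were tested for MNP minus control with edgeR 4.0.16 in R 4.3.3, using TMM factors, the default expression filter (12893 genes left) and the quasi-likelihood F test. Benjamini-Hochberg adjustment of p-values ran over all tested genes, and a gene was called at an adjusted p under 0.05. Standard errors (SE) were obtained by dividing the size of the log2 fold change by the root of F. Replicate pairs differed well beyond sampling noise (chi-square per degree of freedom 6.65 to 17.6 over genes with at least 10 counts), so none was merged. Counting error alone would allow a gene with 0 counts a level of up to 3 counts, which is 0.127 to 0.145 CPM.

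The members, the 3 other gene lists and the marker lists were chosen with earlier results of these data known, so no test over a list is given. All 45 members are named. Those called, and 10 others set by rule (such as Mki67 and Cdk1), have every sample's value. In other lists up to 3 called genes per direction with the smallest p are named. Casc5, listed among the further mitotic genes, and 2 of the entry and exit genes (Cdkn2a and Mycn) were not tested.

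Alternatives were RLE, upper-quartile and total scaling, no filter, a stricter filter (1 CPM in 3 libraries), a replicate block, DESeq2 1.42.0, pseudocounts of 0.1 and 2, and omission of each library. A score without the called members was added after seeing the data. The edgeR and DESeq2 fits were run on simulated counts with planted changes larger than those of the called members. Changes as small as those of the members were not simulated, nor were the scores, medians and promoter steps. Promoter windows and exon lengths come from build GRCm38 and were matched by symbol.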

Additional observations from a re-analysis of the deposited data

How the results depend on the processing

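The number of members called higher was 2 and the number called lower 4. With library totals alone these became 1 and 7, and over all genes 757 were called higher and 1941 lower, against 1174 and 1076 with TMM factors. When each library was left out in turn, members called higher numbered 1 to 2 and lower 0 to 6, and all genes called lower 672 to 1004. RLE factors, upper-quartile factors and the stricter filter left the counts of members at 2 and 4. Of all genes, 17.6%, 17.6% and 19.2% were then called. Without a filter and with DESeq2 the counts of members were 2 and 5, with Tpx2 added. Of all genes, 9.04% of 28815 were called without a filter and 18.2% of 12893 with DESeq2.

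The labels do not say whether the replicate numbers pair the samples, and these values do not settle it. Over all tested genes, deviations from the group means correlated at 0.0867, 0.0282 and -0.0218 between same-numbered samples. Between differently numbered samples the correlations ran from -0.103 to 0.084. In the phase means of the members, the first sample of each group was the lowest of its group. With a replicate block the members called were 2 higher and 6 lower, with Tpx2 (adjusted p = 0.00555) and Kif20a (adjusted p = 0.0431) added. Of all genes, 20.8% were then called, against 17.5% without the block.

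Signs changed in some fits for members near 0, none of them called in either fit. With library totals alone the log2 fold change was -0.032 for Ccne2, -0.036 for E2f1, -0.069 for Gins1, -0.088 for Pola1, -0.079 for Prim1, -0.0050 for Rrm2, -0.084 for Ccnb1, -0.066 for Bub1 and -0.062 for Mki67. Without a filter it was 0.0046 for Ccne1, 0.024 for Rrm1, 0.030 for Foxm1, 0.011 for Ccna2, 0.00038 for Ube2c and 0.031 for Kif23. With a replicate block it was 0.00036 for Ccne1, -0.0015 for Pola1, 0.0077 for Foxm1 and 0.0033 for Ube2c. Upper-quartile factors gave -0.0075 for Pola1 and -0.0028 for Ccnb1, and the stricter filter -0.0062 and -0.0024. RLE factors gave 0.00046 for Foxm1 and 0.0012 for Kif23, and DESeq2 0.00070 and 0.0011. The cause was not tested.

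Leaving out 1 library at a time also changed signs. The log2 fold change ran from -0.24 to 0.11 for Ccne1, -0.071 to 0.17 for Ccne2, -0.030 to 0.22 for E2f8, -0.12 to 0.0085 for Mcm7, -0.049 to 0.11 for Gins1, -0.067 to 0.074 for Pola1, -0.11 to 0.20 for Prim1, -0.10 to 0.064 for Rrm1 and -0.042 to 0.18 for Rrm2. For mitotic members it ran from -0.10 to 0.22 for Foxm1, -0.15 to 0.090 for Ccna2, -0.14 to 0.11 for Ccnb1, -0.059 to 0.16 for Bub1, -0.13 to 0.025 for Cdc20, -0.24 to 0.14 for Ube2c, -0.17 to 0.025 for Kif11, -0.054 to 0.057 for Kif23, -0.22 to 0.018 for Nusap1, -0.067 to 0.14 for Mki67 and -0.17 to 0.021 for Top2a.

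The S phase minus mitotic difference of 0.19 ran from 0.15 to 0.23 over the 6 omissions. It was 0.19 and 0.18 with pseudocounts of 0.1 and 2, and 0.12 without the 6 called members. With 3 samples per group and SEs near 0.1, most members have fold changes smaller than the spread allows to be called.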
